A study of Mus musculus with 20 samples.

Results

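Oxidative phosphorylation is described here through 75 nuclear genes for subunits of the respiratory chain complexes and ATP synthase, out of 20239 probe sets that carry 1 gene symbol. They were chosen by symbol, under a rule set with earlier results of these data known. It took every measured gene whose name begins with Nduf and a subunit letter and number, with Uqcr or with Atp5. It also took names that begin with Cox and a digit from 4 to 8, together with Sdha to Sdhd. The rule gave 36 genes of complex I, 4 of complex II, 6 of complex III, 17 of complex IV and 12 of ATP synthase. Some names do not match today's assignment. Ndufa4, grouped by name with complex I, is now regarded as a part of complex IV, and Cox7a2l is known for joining complexes into supercomplexes. The 13 protein genes of mitochondrial DNA were looked for too, and 0 of 13 were among the named probe sets, so they were not analysed here.

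Complex I takes electrons from NADH and complex II from succinate. Complex III passes them to cytochrome c and complex IV to oxygen, and the protons pumped on the way drive ATP synthase. Neural progenitors lean on glycolysis more than neurons do, and the respiratory chain is known to gain weight as neurons mature.

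The RNA came from forebrains of 20 mouse embryos, 1 embryo per Affymetrix Mouse Gene ST array, at embryonic day 15 by the sample labels and somewhat later that day by the protocol. All were offspring of C57Bl/6J dams and Ts1Cje sires, a line with 3 copies of a distal piece of chromosome 16 that is joined to chromosome 12. The 4 groups of 5 embryos (3 males and 2 females in each, by the design text) were WT on purified powdered chow without additive, Ts1Cje on that chow, WT on the chow with apigenin, and Ts1Cje on the chow with apigenin. Apigenin is a plant flavone, mixed in at 2 g per kg of chow and eaten by the breeding pairs from mating on, which the labels put at 333 to 400 mg per kg per day. The series title asks whether apigenin could serve as a treatment before birth for trisomy 21. Ts1Cje models that condition in part, since the extra piece holds only some of the counterparts of human chromosome 21. Litters are not given, so the p-values measure the spread between these embryos, some of which may be littermates. Embryo numbers in the labels were all 87 or above on plain chow and all 59 or below on apigenin chow, so treatment and the order of collection cannot be told apart.

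The values are log2 expression after the authors' normalization, in which a difference of 1 is a 2-fold change. Any 2 arrays correlated at 0.991 to 0.997, and array medians lay between 7.84 and 7.88. The Y-linked level was high in 3 of the 5 arrays of every group. In a check of the tissue label, 0 of 16 neuron markers and 0 of 10 radial glia markers fell in the dimmest 40% of genes, against 6 of 9 muscle markers. The 75 genes were mostly bright. In the dimmest 40% lay 5 of them (Cox6b2, Cox7a1, Cox7b2, Cox8b and Cox8c), isoforms that textbooks place in muscle or testis. In whole tissue a lower value can mean fewer cells of a type or less RNA per cell, and these cannot be told apart.

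Atp5o (now Atp5po), the stalk subunit that confers oligomycin sensitivity on ATP synthase, is the one gene of the 75 in the trisomic segment. It was higher in Ts1Cje on both chows, 1.24-fold on plain chow and 1.27-fold on apigenin chow. On plain chow its log2 levels were 10.39, 10.39, 10.42, 10.50 and 10.50 in WT and 10.69, 10.73, 10.73, 10.75 and 10.82 in Ts1Cje. On apigenin chow they were 10.41, 10.44, 10.46, 10.50 and 10.51 in WT and 10.75, 10.78, 10.82, 10.83 and 10.84 in Ts1Cje. The genotypes did not overlap on either chow. The log2 difference was 0.31 ± 0.04 (SE; limma adjusted p = 4.3e-05, n = 5 per group) on plain chow and 0.34 ± 0.04 (adjusted p = 1.1e-05) on apigenin chow. Averaged over the chows it was 0.32 ± 0.03, a ratio of 1.25 for a copy ratio of 1.5. A two-sided exact permutation test of genotype gave p = 0.0079 on each chow, the smallest that 252 assignments allow (0.0159 after Benjamini-Hochberg adjustment over 4 tests). The embryo numbers of each chow were cut at their largest gap into a pair of runs, which the labels do not name. Ts1Cje was higher inside every run. For plain chow the differences were 0.38 (2 embryos per genotype) and 0.26 (3 per genotype). For apigenin chow they were 0.35 (3 per genotype) and 0.33 (2 per genotype). The genotype difference of Atp5o was not shown to differ between chows (interaction 0.03 ± 0.05, 95% interval -0.07 to 0.14).

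**Figure D1:**
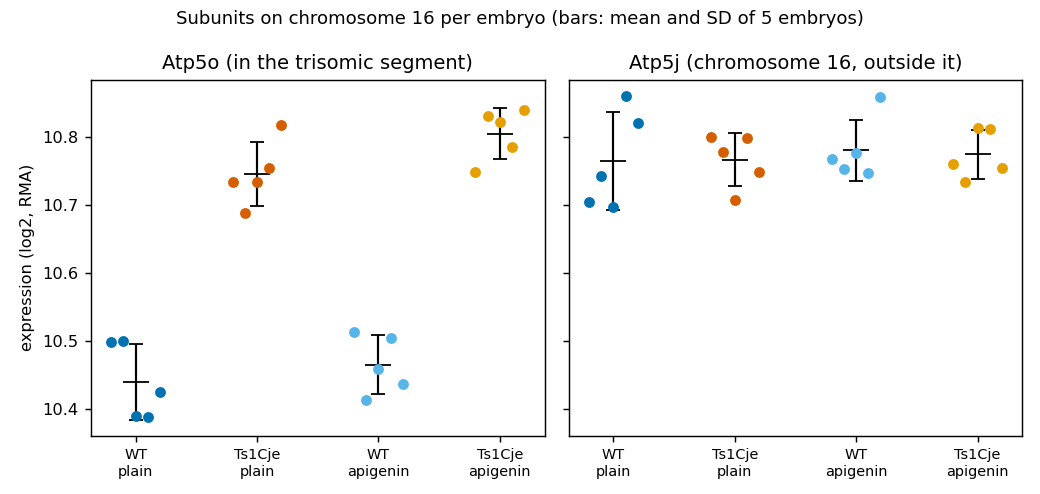
Log2 expression (y axis) of Atp5o and of Atp5j, another ATP synthase gene of chromosome 16, in each embryo by genotype and chow (x axis), with the mean and SD of 5 embryos. For Atp5o the Ts1Cje embryos sit at 10.69 to 10.84, above all WT embryos at 10.39 to 10.51, and for Atp5j the groups overlap.

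Atp5j (now Atp5pf), a coupling subunit of the peripheral stalk of the same enzyme, lies on chromosome 16 as well but before the segment, and served as the neighbour in 2 copies. Its mean level was 10.76 ± 0.07 in WT and 10.77 ± 0.04 in Ts1Cje on plain chow, and 10.78 ± 0.04 and 10.77 ± 0.04 on apigenin chow (SD, n = 5). The genotype difference was 0.00 on plain chow (exact permutation p = 0.976) and -0.01 on apigenin chow (p = 0.857), with a 95% interval of -0.06 to 0.05 for the average. The gene body of Atp5o is at chr16:91925223-91931630 and that of Atp5j at chr16:84827871-84835857 in RefSeq's annotation of GRCm38.p6. The complex I gene Ndufa11b lies farther off on chromosome 16, also outside the segment. The 250 bases before the start of Atp5o are shown because this is the member whose dosage changed. They cover chr16:91931631-91931880 on the minus strand (RefSeq, GRCm38.p6), and the capitals mark a match to ACTACAANT, the core of the site bound by ZNF143.
Atp5o: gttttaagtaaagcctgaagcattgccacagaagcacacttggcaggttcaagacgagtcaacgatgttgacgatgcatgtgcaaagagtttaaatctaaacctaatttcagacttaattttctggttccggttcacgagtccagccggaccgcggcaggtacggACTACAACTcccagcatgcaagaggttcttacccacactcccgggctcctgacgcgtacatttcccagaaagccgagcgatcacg

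Among all measured genes of the trisomic segment Atp5o lay near the middle, and among the brighter ones it lay under the median. The segment, taken from Scaf4 to Zbtb21, held 73 measured genes, of which 42 were higher on plain chow, 42 on apigenin chow and 47 in the average, and 0 were lower. Their median log2 difference was 0.32, 0.33 and 0.33 in these comparisons. Atp5o ranked 39 of 73 on plain chow, 34 on apigenin chow and 39 in the average, counted from the largest difference. Its neighbours in gene order were Itsn1, an endocytic scaffold, at 0.40 ± 0.03 in the average, Slc5a3, a myo-inositol transporter, at 0.41 ± 0.05, and Mrps6, a protein of the mitochondrial ribosome, at 0.38 ± 0.03. Among the 49 genes of the segment outside the dimmest 40% of the array the median was 0.38, above the 0.32 of Atp5o.

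**Figure D2:**
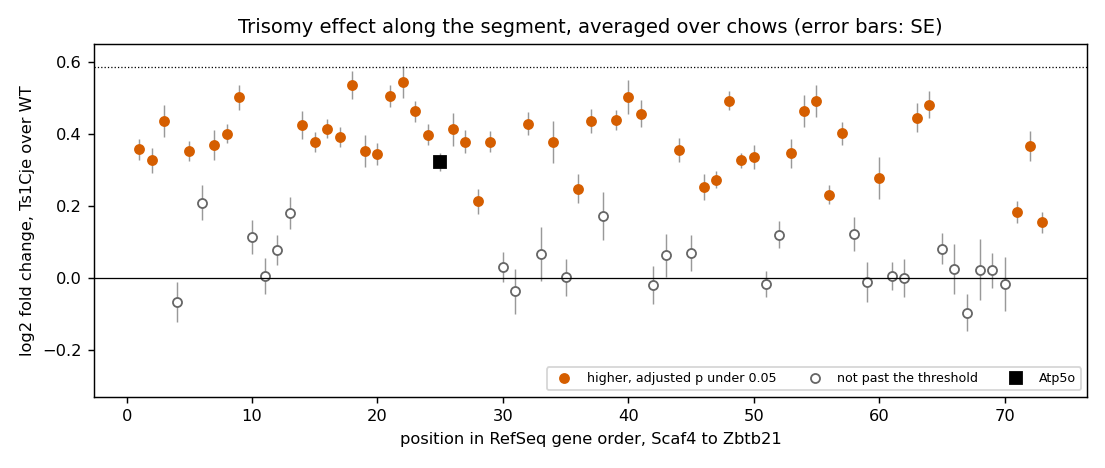
Log2 difference of Ts1Cje from WT averaged over chows (y axis, with SE) for the 73 measured genes of the trisomic segment in RefSeq gene order (x axis); filled points passed the test and the dotted line is the log2 of the copy ratio of 1.5. Atp5o, the square at position 25, has a difference of 0.32, close to the segment's median of 0.33.

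Trisomy moved no other gene of the 75 past the threshold. On plain chow Atp5o was the 1 gene higher and 0 were lower, where 0.262% of all genes were higher and 0.0494% lower. Apigenin chow gave the same counts, again beside 0.262% higher and 0.0494% lower over all genes. In the average over chows, where 0.489% of all genes were higher and 0.133% lower, the count was again 1 and 0. Of the other 74 genes, 1 had an unadjusted limma p under 0.05 in each of these comparisons, and the methods' t-test with Benjamini-Hochberg adjustment also gave 1 gene of the 75 on each chow. The smallest p in the average belonged to Ndufb3, an accessory subunit of the complex I membrane arm, whose log2 difference was -0.14 ± 0.05 (adjusted p = 0.355). On apigenin chow it belonged to Ndufa7, an accessory subunit near the matrix arm, at -0.14 ± 0.05 (adjusted p = 0.709).

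The members of each complex stood near 0 between genotypes. The median log2 difference in the average over chows was -0.01 for complex I, -0.02 for complex II, -0.01 for complex III, -0.03 for complex IV and -0.02 for ATP synthase without Atp5o, and -0.01 over all genes. Complex II had Sdhd, a membrane anchor, at -0.05 ± 0.03 and Sdhc, the other anchor, at -0.03 ± 0.05 (adjusted p = 0.740 and 0.923). Complex III had Uqcrq at -0.03 ± 0.04 and the core protein Uqcrc2 at 0.02 ± 0.03 (adjusted p = 0.874 and 0.910). For complex IV the smallest p were those of Cox8c, at -0.09 ± 0.05, and Cox5a, a subunit facing the matrix, at -0.05 ± 0.02 (adjusted p = 0.602 and 0.605). In ATP synthase the catalytic beta subunit gene Atp5b was at -0.04 ± 0.02 (adjusted p = 0.671).

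Apigenin chow was followed by lower levels of 16 of the 75 genes and higher levels of 4, in the average over genotypes. Of the lower genes 10 were in complex I, and the 4 higher genes were Atp5a1, Sdha, Atp5mpl and Uqcrc2. Over all genes 12% were lower and 13.8% higher, against 21.3% and 5.33% of the 75. Dim genes are called less often, and of the 12143 genes outside the dimmest 40% of the array 17.6% were lower and 21.6% higher by the same test. The share of lower members was thus near that of bright genes, and the share of higher members was under it. The count of 20 moved when single embryos were left out. It was 11 without WT plain chow replicate 5, Ts1Cje plain chow replicate 4 or WT apigenin chow replicate 3. Without Ts1Cje plain chow replicate 1 it was 13. The share of all genes called in those fits is not given here, so the drop cannot be read as particular to the 75. The changes were small. They ran from -0.27 to 0.15 on the log2 scale, and the median over the 75 genes was -0.03, with a median of 0.00 over all genes.

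**Figure D3:**
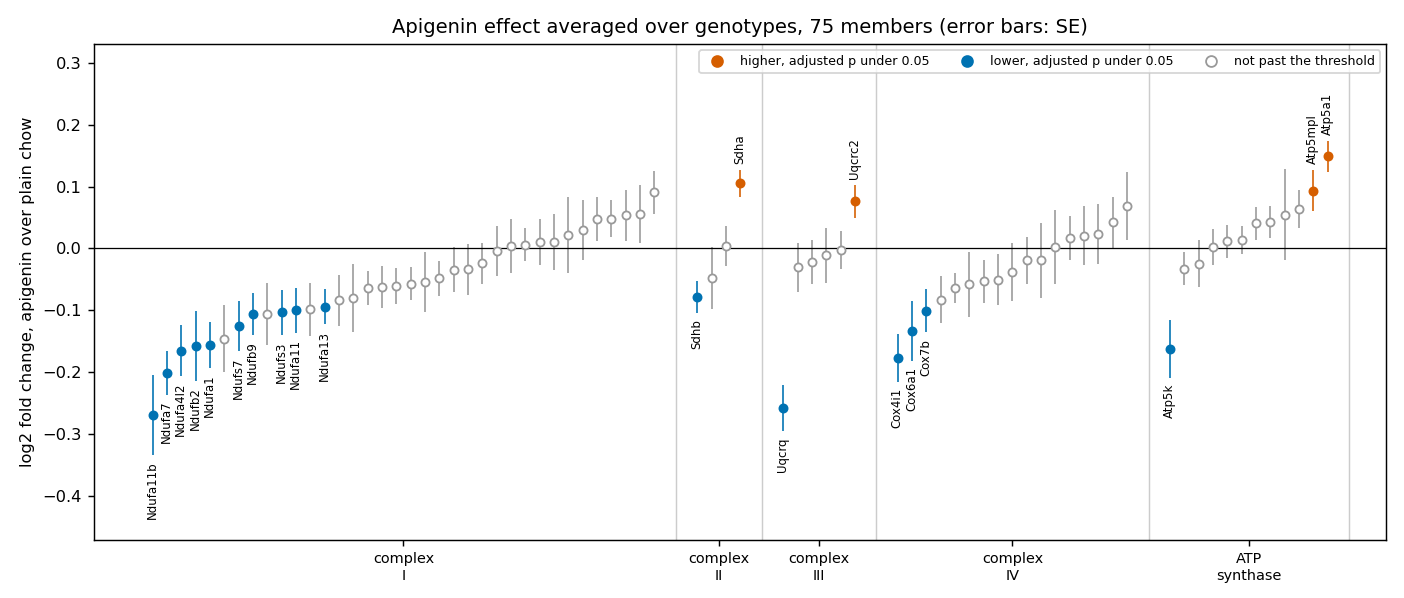
Log2 difference of apigenin from plain chow averaged over genotypes (y axis, with SE) for the 75 genes, grouped by complex and sorted within each (x axis); filled points passed the limma test at an adjusted p of 0.05. The 16 lower genes include 10 of complex I, and the 4 higher ones are spread over complex II, complex III and ATP synthase.

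In complex I, 10 of 36 genes fell and 0 rose. The genes were counted by name, and the 10 include Ndufa4l2, a stand-in for Ndufa4, and Ndufa11b, whose signal may not be separate from that of Ndufa11. The share of 27.8% stands beside 12% lower among all genes and 17.6% among those outside the dimmest 40%, where all 36 lie, and the median of the 36 was -0.06. Ndufa7 showed the smallest p. Its log2 levels on plain chow were 8.85, 8.97, 8.99, 9.00 and 9.12 in WT and 8.97, 8.98, 8.98, 9.06 and 9.08 in Ts1Cje. On apigenin chow they were 8.79, 8.80, 8.87, 8.88 and 9.00 in WT and 8.65, 8.70, 8.70, 8.79 and 8.81 in Ts1Cje. The chows overlapped in WT and did not in Ts1Cje. The difference was -0.20 ± 0.04 in the average (limma adjusted p = 2.2e-04), -0.28 ± 0.05 in Ts1Cje (adjusted p = 5.4e-04) and -0.12 ± 0.05 in WT, which did not pass. The difference between these effects, the interaction, was -0.17 ± 0.07 (adjusted p = 0.9999), so a difference between the genotypes was not shown.

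Ndufa1, a small essential subunit encoded on the X chromosome, fell by 0.16 in the average (SE 0.04, adjusted p = 0.0034). The WT mean went from 9.33 ± 0.09 without apigenin to 9.13 ± 0.05 with it, and the Ts1Cje mean from 9.26 ± 0.08 to 9.15 ± 0.10 (SD, n = 5). Ndufa11 codes for a subunit that holds the membrane arm together, and Ndufa11b is a closely related gene on another chromosome, so the probes of one may also take up RNA of the other. Ndufa11b had the lowest difference of the 75 genes, -0.27 ± 0.06 (adjusted p = 0.0036). Its embryos were scattered, in WT on apigenin chow from 8.83 to 9.41. Ndufa11 fell by 0.10 (SE 0.04, adjusted p = 0.049), a call lost in 15 of 20 fits with an embryo left out. Ndufa4l2, which stands in for Ndufa4 under low oxygen, fell by 0.16 (adjusted p = 0.0044), while Ndufa4 itself did not pass. Ndufa13, an assembly-critical subunit also called GRIM-19, fell by 0.09 in the average (adjusted p = 0.018) and by 0.16 in Ts1Cje (adjusted p = 0.0089). In the Ts1Cje groups the chows did not overlap for Ndufa4l2, Ndufa11b and Ndufa13, and in WT they overlapped for all 3. These genes had passed the test in Ts1Cje, and how often the chows do not overlap over all genes was not counted. The interaction did not pass for any of the 3, so a difference between the genotypes was not shown.

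The other 4 genes of complex I that fell were named after their values were seen. Ndufs7 and Ndufs3 are core subunits, of which Ndufs7 carries an iron-sulfur cluster, and they fell by 0.125 and 0.10. Ndufb9 and Ndufb2 are accessory subunits of the membrane arm and fell by 0.11 and 0.16. Their adjusted p-values lay between 0.027 and 0.046, and for Ndufs7, Ndufs3 and Ndufb2 the 2 chows overlapped in both genotypes. With an embryo left out, the call was lost in 15 of 20 fits for Ndufb2, 10 for Ndufs3 and 6 each for Ndufs7 and Ndufb9. Just outside the threshold were Ndufb8, at -0.15 ± 0.05 (adjusted p = 0.054), and Ndufa2, at 0.09 ± 0.03 (adjusted p = 0.058).

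Complex II showed opposite changes in its catalytic pair. Sdha, the flavoprotein that oxidises succinate, had log2 levels of 10.94, 10.96, 10.98, 10.98 and 11.02 in WT and 10.92, 10.94, 10.99, 11.00 and 11.04 in Ts1Cje on plain chow. On apigenin chow the levels were 11.06, 11.08, 11.09, 11.09 and 11.10 in WT and 11.06, 11.07, 11.07, 11.08 and 11.12 in Ts1Cje. All 10 embryos on apigenin chow were above all 10 on plain chow. Of the 20 genes that passed in the average, 3 had no overlap of the chows over all embryos (Sdha, Uqcrq and Atp5a1). They had passed the test on these same embryos, and the share of all genes without overlap was not counted. For Sdha the difference was 0.10 ± 0.02 in the average (limma adjusted p = 0.0010), 0.11 ± 0.03 in WT and 0.10 ± 0.03 in Ts1Cje. It passed in each genotype. Within a genotype the call did not hold throughout: it was lost in 2 of 20 fits with an embryo left out and 2 of 11 other settings in WT, and in 4 of 20 and 2 of 11 in Ts1Cje. Sdhb, the iron-sulfur partner of Sdha, fell by 0.08 (SE 0.03, adjusted p = 0.031), a call lost in 6 of 20 fits with an embryo left out. The membrane anchors Sdhc and Sdhd were at -0.05 ± 0.05 and 0.00 ± 0.03.

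Complex III held the gene with the smallest p of the 75, Uqcrq, a small subunit at the ubiquinone-binding side. Its levels on plain chow were 10.12, 10.24, 10.29, 10.29 and 10.44 in WT and 10.15, 10.18, 10.22, 10.28 and 10.30 in Ts1Cje. On apigenin chow they were 9.91, 9.98, 9.99, 10.05 and 10.08 in WT and 9.91, 9.92, 10.02, 10.03 and 10.06 in Ts1Cje. Again the 2 chows did not overlap. The difference was -0.26 ± 0.04 in the average (limma adjusted p = 2.8e-05), -0.27 ± 0.05 in WT and -0.24 ± 0.05 in Ts1Cje. Uqcrc2, a core protein of the same complex, rose by 0.08 (SE 0.03, adjusted p = 0.042), a call lost in 14 of 20 fits with an embryo left out. The other 4 genes of the complex, among them Uqcrfs1 for the Rieske iron-sulfur protein, lay between -0.03 and 0.00.

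In complex IV, 3 of 17 genes fell and 0 rose, and the median was -0.04. The share that fell, 17.6%, stands beside 12% lower over all genes. Outside the dimmest 40% of the array 17.6% of genes were lower too, but the denominators are unlike. Of the 17 genes 5 lie in the dimmest 40%, and the 3 that fell do not, so the share among the brighter members is higher. Cox4i1, the common isoform of the regulatory subunit 4, had levels of 10.37, 10.44, 10.48, 10.54 and 10.69 in WT and 10.44, 10.44, 10.47, 10.53 and 10.63 in Ts1Cje on plain chow. On apigenin chow they were 10.31, 10.33, 10.34, 10.35 and 10.39 in WT and 10.20, 10.24, 10.35, 10.38 and 10.39 in Ts1Cje. In WT the highest apigenin embryo reached just above the lowest plain-chow embryo, and in Ts1Cje the chows did not overlap. The difference was -0.18 ± 0.04 in the average (adjusted p = 0.0015). Cox7b, an X-linked subunit, and Cox6a1, the broadly expressed isoform of subunit 6a, fell by 0.10 and 0.13 (adjusted p = 0.040 and 0.0495), with overlap in both genotypes. These calls were lost in 10 and 13 of 20 fits with an embryo left out. The hypoxia-linked isoform Cox4i2 was at -0.08 ± 0.04 (adjusted p = 0.123). The muscle isoforms Cox6a2 and Cox7a1 were at 0.07 ± 0.05 and -0.04 ± 0.05, and the testis isoforms Cox6b2, Cox7b2 and Cox8c between -0.02 and 0.02, and of these 5 all but Cox6a2 lay in the dimmest 40%.

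In ATP synthase 2 of 12 genes rose and 1 fell. These shares, 16.7% and 8.33%, are near the 13.8% and 12% of all genes. All 12 lie outside the dimmest 40% of the array, where 21.6% of genes were higher and 17.6% lower. Atp5a1, the alpha subunit of the catalytic head, had levels of 11.40, 11.42, 11.47, 11.51 and 11.54 in WT and 11.35, 11.40, 11.46, 11.46 and 11.48 in Ts1Cje on plain chow. On apigenin chow they were 11.58, 11.59, 11.61, 11.65 and 11.65 in WT and 11.55, 11.57, 11.58, 11.59 and 11.62 in Ts1Cje. The lowest of the 10 apigenin embryos, at 11.55, was just above the highest on plain chow, at 11.54. The difference was 0.15 in the average (SE 0.03, limma adjusted p = 1.6e-04) and 0.15 in each genotype. Atp5b, for the beta subunit that forms the head with it, was at 0.01 ± 0.02, and did not pass. Atp5k, a membrane subunit at the dimer interface, fell by 0.16 (SE 0.05, adjusted p = 0.013). RefSeq lists 4 pseudogenes named after Atp5k, whose RNA its probes could share. Atp5mpl, a small proteolipid of the membrane part, rose by 0.09 (adjusted p = 0.045), a call lost in 14 of 20 fits with an embryo left out. Atp5g3, an isoform of the c ring subunit, was at 0.06 ± 0.03 (adjusted p = 0.141).

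Within each genotype fewer genes passed. In WT 2 rose (Atp5a1 and Sdha) and 2 fell (Uqcrq and Ndufa1), beside 6.46% of all genes higher and 5.85% lower. In Ts1Cje 2 rose (Atp5a1 and Sdha) and 6 fell (Ndufa7, Uqcrq, Ndufa13, Ndufa4l2, Cox4i1 and Ndufa11b), beside 8.09% higher and 8.17% lower. In WT 2.67% of the 75 genes were lower and 2.67% higher, both under the shares of all genes. In Ts1Cje 8% were lower, near the 8.17% of all genes, and 2.67% were higher, under the 8.09%. Of the 12143 brighter genes 8.78% were lower and 10.1% higher in WT, and 12.5% were lower and 12.7% higher in Ts1Cje. Beside these brighter genes the shares of the 75 were lower in both directions and both genotypes. Without Ts1Cje plain chow replicate 4 the count in Ts1Cje was 5 in place of 8, and the share of all genes in that fit is not given here. The interaction called 0 of the 75 genes and 0% of all genes, with 2 of the 75 (Ndufa7 and Ndufa13) under an unadjusted limma p of 0.05. The effects estimated in the separate embryos of each genotype were alike in order, with Pearson r = 0.843 and Spearman rho = 0.850 over the 75 genes, and 60 of the 75 had the same sign. This is a description across genes, which are not independent of one another, and the same agreement over all genes is not given here. Both genotypes also share the split of embryo numbers between the chows.

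**Figure D4:**
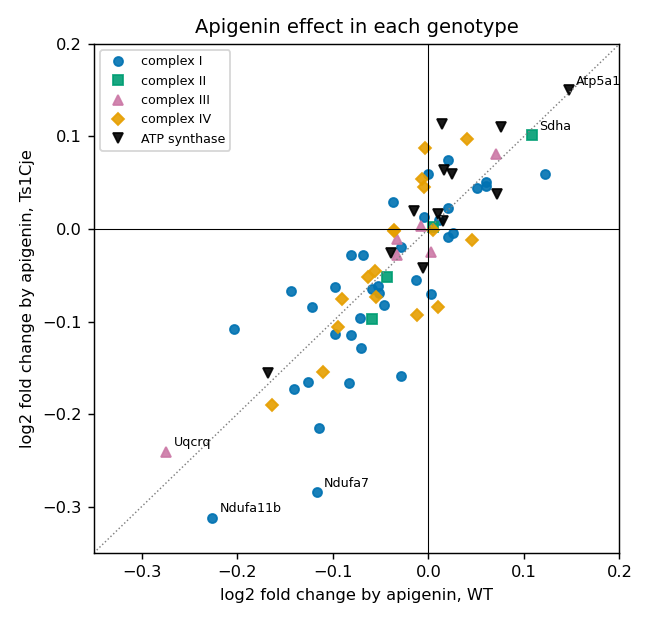
Log2 difference of apigenin from plain chow in WT (x axis) and in Ts1Cje (y axis) for each of the 75 genes, with the symbol showing the complex and the dotted line equality. Uqcrq is low and Atp5a1 and Sdha are high on both axes, and 60 of 75 genes have the same sign.

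Averaging the members of a complex per embryo gave groups that overlapped between chows in each complex. The mean of the 36 complex I genes was 9.73 ± 0.05 in WT and 9.73 ± 0.04 in Ts1Cje on plain chow, and 9.68 ± 0.05 and 9.66 ± 0.04 on apigenin chow (SD, n = 5). The averaged difference of -0.06 compares with a range of 0.096 to 0.125 among the 5 embryos of a group, and the 2 chows overlapped in both genotypes. Complexes II, III and IV differed by -0.004, -0.04 and -0.04, and ATP synthase without Atp5o by 0.02.

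**Figure D5:**
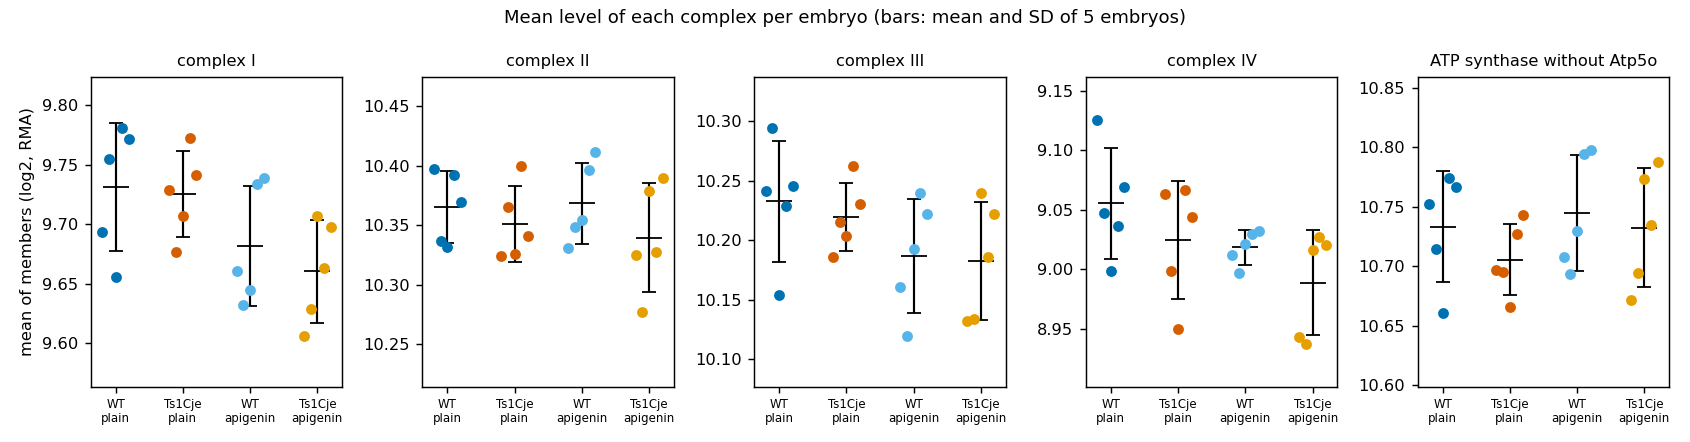
Mean log2 level of the measured members of each complex in every embryo (y axis, a separate scale of equal span for each complex) by genotype and chow (x axis), with the mean and SD of 5 embryos. The groups overlap in every panel, and the complex I means fall from 9.73 on plain chow to 9.68 and 9.66 on apigenin chow.

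The promoters of 60 of the 75 genes were in RefSeq's table (GRCm38.p6), and the 250 bases before each start were searched on both strands. NRF1, a factor known for driving respiratory chain genes, binds a site written here as GCGCANGCG, which 10 of the 60 held, 16.7% beside 8.61% of 15651 genes on the array. The ETS-type site CCGGAAG, which GABP binds, was in 15% beside 10.6%, and ACTACAANT was in 6.67% beside 2.24%. A YY1-type site, AAGATGGCG, was in 1.67% beside 0.914%. TATAAA was in 8.33% beside 12.8%, and CCAAT in 41.7% beside 39.0%. A match is a string of letters, and short strings also occur by composition (the median window held 14 CpG in the members and 11 over the array). Of the 4 higher genes 1 had a promoter entry, Sdha, and it held the NRF1-type string. Of the 16 lower genes 11 had one, and 3 of these held the string (Atp5k, Ndufa11 and Cox6a1), as did 6 of the 48 that did not pass. The 4 windows of genes that changed are shown to let the string be seen in place, and with 1 higher promoter they allow no contrast between directions. Capitals mark GCGCANGCG on either strand, overlapping where the string reads the same both ways, and in Cox6a1 also CCGGAAG near the start. The windows are chr13:74350241-74350490 (minus strand, Sdha), chr5:108434400-108434649 (minus, Atp5k), chr17:56717512-56717761 (plus, Ndufa11) and chr5:115348959-115349208 (minus, Cox6a1).
Sdha: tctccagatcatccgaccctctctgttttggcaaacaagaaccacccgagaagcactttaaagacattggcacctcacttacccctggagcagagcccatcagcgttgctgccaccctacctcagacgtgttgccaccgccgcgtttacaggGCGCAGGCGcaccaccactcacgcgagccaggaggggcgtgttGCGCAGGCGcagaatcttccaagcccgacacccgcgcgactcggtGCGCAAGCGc
Atp5k: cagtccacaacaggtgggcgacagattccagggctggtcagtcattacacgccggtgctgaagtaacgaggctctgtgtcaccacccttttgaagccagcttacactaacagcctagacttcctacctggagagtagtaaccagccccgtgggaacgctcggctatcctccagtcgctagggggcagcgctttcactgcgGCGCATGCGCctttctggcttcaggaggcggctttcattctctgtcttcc
Ndufa11: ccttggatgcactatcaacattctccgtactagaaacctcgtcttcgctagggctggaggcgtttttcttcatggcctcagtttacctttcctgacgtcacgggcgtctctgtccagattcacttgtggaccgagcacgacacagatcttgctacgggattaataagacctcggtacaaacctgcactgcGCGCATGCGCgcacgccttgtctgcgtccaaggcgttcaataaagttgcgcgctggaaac
Cox6a1: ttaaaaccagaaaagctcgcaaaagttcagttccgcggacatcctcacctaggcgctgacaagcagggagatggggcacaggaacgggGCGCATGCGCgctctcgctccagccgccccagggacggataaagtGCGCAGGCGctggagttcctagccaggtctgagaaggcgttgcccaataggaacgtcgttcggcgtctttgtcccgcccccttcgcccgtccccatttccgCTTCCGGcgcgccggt

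Regulators of mitochondrial biogenesis are the factors that switch on subunit genes and copy mitochondrial DNA. Of 22 measured, 8 rose and 1 fell in the average, with a median of 0.07. Nrf1 rose by 0.21 (SE 0.04, limma adjusted p = 4.8e-04). Gabpb2, a subunit of GABP, rose by 0.35 (adjusted p = 7.9e-07). Ssbp1, which coats single-stranded mitochondrial DNA, rose by 0.33 (adjusted p = 7.4e-05). The one that fell was Ppargc1a, the PGC-1alpha coactivator, by 0.20 (SE 0.04, adjusted p = 4.4e-04). In WT 5 passed, all higher, beside 6.46% of all genes higher and 5.85% lower. In Ts1Cje 4 were higher and 2 lower, beside 8.09% and 8.17% of all genes.

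Assembly factors build the complexes without staying in them. Of 50 measured, 10 rose and 2 fell, with a median of 0.05. Timmdc1, for complex I assembly, rose by 0.14, Uqcc3, for complex III, by 0.17, and Tmem70, for ATP synthase, by 0.09 (adjusted p = 0.0034, 0.0037 and 0.0049). Bcs1l, which inserts the Rieske protein into complex III, fell by 0.13 (adjusted p = 0.0037). Both lists were drawn up with earlier results of these data known. The averaged counts describe them beside the 13.8% higher and 12% lower of all genes, or 21.6% and 17.6% outside the dimmest 40%. In that dim part lay 2 of the 22 regulators and 2 of the 50 assembly factors.

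The remaining lists were mixed, and were also drawn up with earlier results of these data known. Their counts stand beside the same 13.8% higher and 12% lower of all genes, or 21.6% and 17.6% outside the dimmest 40%. Of 76 genes of the mitochondrial ribosome 8 rose and 5 fell, led by Mrpl54, Mrps18a and Mrpl40, which fell by 0.26, 0.16 and 0.15, and Mrpl18, which rose by 0.17. Of 16 genes of the citric acid cycle 3 rose and 1 fell. Idh2, the mitochondrial NADP-linked isocitrate dehydrogenase, rose by 0.16 with apigenin (SE 0.02, adjusted p = 3.3e-05), and it was also higher in Ts1Cje by 0.16 in the average over chows (SE 0.02, adjusted p = 8.6e-04). Of 30 genes for electron carriers, adenine nucleotide exchange and related functions 4 rose and 3 fell. The largest difference there was that of Ckmt1, the mitochondrial creatine kinase of neurons, which fell by 0.49 (SE 0.04, adjusted p = 4.6e-08). Aifm1, a flavoprotein needed for respiratory chain biogenesis, rose by 0.21 (adjusted p = 1.4e-04). Of 15 glycolytic genes 3 rose and 6 fell. The hexokinase gene Hk1 and the neuronal glucose transporter gene Slc2a3 fell by 0.16 and 0.24, while Hk2, another hexokinase, and Pkm, for pyruvate kinase, rose by 0.26 and 0.22. Apart from Mrps6 in the segment and Idh2, trisomy called 0 genes of these lists in the average. Over all genes 0.489% were higher and 0.133% lower. Under an unadjusted limma p of 0.05 were 2 to 4 genes of each list, Mrps6 and Idh2 among them. The share of all genes at that cut is not given here.

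Markers of cell types moved with the chow as well. The marker lists too were drawn up with earlier results of these data known, so their counts are descriptions only. In the average over genotypes 13.8% of all genes rose and 12% fell, or 21.6% and 17.6% outside the dimmest 40%. All 14 dividing-cell markers rose in both genotypes, with a median of 0.35, and their mean level per embryo was 9.05 to 9.35 on plain chow and 9.49 to 9.68 on apigenin chow. Of 10 radial glia markers 6 rose and 0 fell, with mean levels of 9.57 to 9.73 and 9.80 to 9.95. Of 16 neuron markers 8 fell and 1 rose, with mean levels of 11.11 to 11.17 and 10.99 to 11.09. For these 3 lists no embryo of one chow reached the range of the other. The share of all genes for which this holds was not counted. The embryonic globin genes Hbb-y and Hba-x rose by 2.78 and 0.75, and of the other 5 erythroid markers 1 fell, so the erythroid list spanned 7.37 to 7.70 on plain chow and 7.88 to 8.37 on apigenin chow. Of 8 endothelial markers 1 rose and 1 fell, of 6 microglial markers 1 fell, and of 9 muscle and 7 meningeal markers 0 passed (with 2 of 16 of these at an unadjusted limma p under 0.05). In the dimmest 40% were 2 of 7 erythroid and 3 of 6 microglial markers. The part of these shifts in the apigenin differences of the respiratory chain genes was not tested. Between genotypes, in the average over chows, 0 markers of these lists passed limma's threshold. In that comparison 0.489% of all genes were higher and 0.133% lower. An unadjusted limma p under 0.05 was found for 4 of 8 endothelial, 2 of 7 meningeal and 1 of 6 microglial markers. The share of all genes at that cut is not given here, so these counts are not read as an effect.

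By gene length and level the genes that fell and rose differed as follows. The 16 lower genes had a median gene length of 6619 bases and the 4 higher ones 16718.5, against 7510 for the 55 that did not pass, and their median levels were 9.83, 11.1 and 9.96. With 4 genes on one side these are descriptions only. The spread between embryos was ordinary, with a median within-group SD of 0.080 for members outside the dimmest 40% and 0.079 for all such genes.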

How the data were processed

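The 20 arrays (5 per group) were read from the deposited table, which holds the authors' log2 values after RMA (background correction, quantile normalization and probe summary), per the submitters' processing notes. For RMA's version, the chip definition and the build, the status is: not given in the sources used here. RMA removes array-wide differences and compresses dim genes, and the number of arrays limits the precision. Of 21225 probe sets, 20239 had 1 gene symbol in the platform annotation, 0 had several and 986 were unnamed; those with 1 symbol were tested.

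Groups came from the genotype and treatment labels. A model with 4 group means was fitted with limma 3.58.1 in R 4.3.3 (lmFit, eBayes), and p-values were adjusted by Benjamini-Hochberg over the 20239 probe sets, with a threshold of 0.05. Atp5o and Atp5j were also tested by exact permutation. The fit was tested on simulated data. The members and lists were chosen with earlier results of these data known. Genes named with values are Atp5o and Atp5j, up to 4 of a complex with the smallest p in each direction per comparison (the best 2 where fewer passed), members opposing their complex, tissue-limited isoforms, and the first 4 of each other list by p. Ndufs7, Ndufs3, Ndufb9, Ndufb2, Ndufa11, genes just outside the threshold, Ndufa4, Atp5b, Sdhc and Sdhd under apigenin, and the neighbours of Atp5o were named after their values were seen. Alternatives were the methods' t-test, fits on the compared groups only, trended and robust priors, array weights, 2 filters on dim probe sets, 2 further normalizations, Y-linked level as a covariate, runs of embryo numbers as a random block, all probe sets, and each array left out. Promoter windows and gene positions are RefSeq's, GRCm38.p6.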

Additional observations from a re-analysis of the deposited data

Results flagged for a closer look

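Each of the 75 genes and the mean of each complex was checked, in each group of 5 embryos, for a single embryo far from the rest. In 11 of 320 checks one stood out, or 3.44%, where chance gives about 1 in 20. In WT apigenin chow replicate 5, Atp5j was 10.86 with the other 4 embryos between 10.75 and 10.78, and Ndufb9 was 11.97 with the others between 11.71 and 11.78. Atp5g3 was 11.06 in WT apigenin chow replicate 4, against 10.98 to 11.00. In Ts1Cje plain chow replicate 4, Ndufb9 was 12.04 against 11.88 to 11.91, and Cox7b was 9.94 against 9.75 to 9.80. In WT plain chow replicate 2, Sdhb was 10.66 against 10.51 to 10.55, Atp5e was 9.38 against 9.18 to 9.21, and Cox7a2 was 9.72 against 9.38 to 9.47. Ndufa10 was 10.98 in Ts1Cje apigenin chow replicate 4, against 10.91 to 10.93. The other two cases were low values: Ndufa4 was 11.06 in Ts1Cje plain chow replicate 1, against 11.14 to 11.17, and the dim Cox6b2 was 6.48 in Ts1Cje plain chow replicate 3, against 6.71 to 6.77.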

How the results depend on the processing

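Leaving out single embryos moved the number of members called for apigenin averaged over genotypes between 11 and 21 (20 with all embryos), in Ts1Cje between 5 and 9 (8), and in WT between 3 and 5 (4). The averaged count was 11 without WT plain chow replicate 5, Ts1Cje plain chow replicate 4 or WT apigenin chow replicate 3, and 13 without Ts1Cje plain chow replicate 1. The Ts1Cje count was 5 without Ts1Cje plain chow replicate 4. The share of all genes called in these fits is not given here, so the moves cannot be read as particular to the members. Their cause was not tested beyond the smaller number of embryos. Over the other settings these counts ran from 17 to 23, 7 to 11 and 3 to 5. For trisomy Atp5o was called in each setting run, and its averaged difference stayed between 0.31 and 0.33 with an embryo left out. Of 1014 settings over 34 single-gene results, 879 kept the call, 135 lost it and 0 reversed direction. For apigenin averaged over genotypes, 10 of 20 calls held in each of 29 settings (Atp5a1, Atp5k, Cox4i1, Ndufa1, Ndufa11b, Ndufa13, Ndufa4l2, Ndufa7, Sdha and Uqcrq). In WT 2 of 4 calls held in each of 31 settings (Ndufa1 and Uqcrq), and in Ts1Cje 5 of 8 (Atp5a1, Ndufa13, Ndufa4l2, Ndufa7 and Uqcrq). Low signal limits Cox6b2, Cox7a1, Cox7b2, Cox8b and Cox8c.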
